A study of Mus musculus with 2 samples.

Results

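The genes of Toll-like receptor, TNF and NF-kB signalling were compared between platelets of Smad4 f/f and Smad4 -/- mice. They were chosen by gene symbol alone, so family members known under other symbols (such as Cd40lg or Ltb) stand apart below: the probe sets with 1 symbol of the form used for a Toll-like receptor, a Myd88-type adaptor, an IRAK, TRAF or RIP kinase family member, a TNF family ligand or receptor, a subunit of the IKK and TAK1 complexes, an NF-kB factor, an IkB protein, A20 (Tnfaip3) or another TNF-induced Tnfaip gene. This gave 73 of the 18193 genes on the array, covered by 137 probe sets. Both genotypes are on the C57BL/6 strain and carry loxP sites around Smad4. Smad4 f/f is the control, and Smad4 -/- is labelled as lacking the gene in megakaryocytes and platelets through a Cre transgene with the platelet factor 4 promoter. RNA came from washed platelets. Each genotype has 6 mice and 1 array, age and sex are not given, and whether RNA was pooled is not stated. There are therefore no replicates, no value has an error, and every difference is one between 2 arrays.

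Toll-like receptors sense microbial molecules at the cell surface or in endosomes and signal through Myd88 or Ticam1 to IRAK kinases and Traf6. Receptors of the TNF family recruit other TRAF proteins and RIP kinases. Both routes meet at the TAK1 and IKK kinases, which release NF-kB factors from their IkB inhibitors, and NF-kB in turn switches on the genes of its own inhibitors Nfkbia and Tnfaip3. Platelets inherit their mRNA from the megakaryocyte and, lacking a nucleus, use parts of this pathway without transcription.

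The letters that NF-kB reads lie close to the start of several of these genes. The kappa B consensus was searched on both strands in the RefSeq promoter windows (GRCm38.p6, from 250 bases before the gene start to 50 after it), where overlapping matches count as 1 window with a match. Of 32851 windows, 8.46% held a match. By gene, 13 of the 61 members with a window held one, as did 2581 of 27025 genes in all. The 250 bases before the start are shown, on the strand of the gene, for 3 inhibitors of the pathway and for Tlr2, with the matches in capitals. They lie at chr12:55492648-55492897 (Nfkbia), chr10:19015411-19015660 (Tnfaip3), chr11:54962941-54963190 (Tnip1) and chr3:83841609-83841858 (Tlr2), all on the minus strand.

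Nfkbia: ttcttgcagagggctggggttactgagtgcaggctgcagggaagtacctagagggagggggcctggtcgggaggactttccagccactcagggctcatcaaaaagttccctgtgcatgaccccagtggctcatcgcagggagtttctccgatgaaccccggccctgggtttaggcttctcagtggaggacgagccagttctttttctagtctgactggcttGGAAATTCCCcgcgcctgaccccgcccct
Tnfaip3: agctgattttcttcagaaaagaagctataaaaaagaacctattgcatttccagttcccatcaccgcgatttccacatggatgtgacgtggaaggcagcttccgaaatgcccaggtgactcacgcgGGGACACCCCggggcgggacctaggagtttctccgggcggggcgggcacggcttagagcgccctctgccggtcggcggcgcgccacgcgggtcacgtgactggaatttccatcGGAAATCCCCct
Tnip1: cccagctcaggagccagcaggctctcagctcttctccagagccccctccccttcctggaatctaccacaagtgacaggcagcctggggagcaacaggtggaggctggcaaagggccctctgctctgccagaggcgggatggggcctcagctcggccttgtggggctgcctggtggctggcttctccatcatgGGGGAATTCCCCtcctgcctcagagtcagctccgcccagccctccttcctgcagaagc
Tlr2: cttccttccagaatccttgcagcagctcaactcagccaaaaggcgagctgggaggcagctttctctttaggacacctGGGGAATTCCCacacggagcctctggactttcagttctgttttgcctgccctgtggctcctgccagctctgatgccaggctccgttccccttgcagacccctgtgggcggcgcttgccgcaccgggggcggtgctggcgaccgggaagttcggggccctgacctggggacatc

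Counted from the gene start, the match of Nfkbia begins at position −29 and those of Tnfaip3 at −125 and −12. Overlapping matches begin at −58 in Tnip1 and at −173 in Tlr2. A further match of Tlr2 at −8 runs past the end of the printed stretch and is in lower case. The start used for Tlr2 is that of a transcript that begins inside the annotated gene, which reaches to position 83841824 of chromosome 3, so most of its stretch lies within the gene, and the end of the Tnip1 stretch does too. A match describes letters and is not a shown site of binding. Of the 9 measured members with a match, 0 were called at 2-fold, although Tlr2 and Tnfrsf9 have only lower bounds. Of all 1094 measured genes with a match, 34 were called higher and 48 lower. With so small a share, 0 of 9 is not read as a result. The 9 members lay on both sides of 0, with a median log2 ratio of −0.13. The other measured members with a window had a median of −0.10. Over all measured genes the medians were −0.006 with a match and −0.02 without.

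Signals are the authors' log2 values, given below on the linear scale, and ratios are Smad4 -/- over Smad4 f/f. Signals of different genes cannot be ranked, since probe sets differ in strength. A floor was set at a linear signal of 145, the 60th percentile of the arrays, and a gene counted as measured where its strongest probe set reached the floor on at least 1 array. That held for 49 of the 73 members, 35 of them on both arrays, and for 11089 genes in all. Where 1 array lay below the floor, the fold is a lower bound against the floor, written as at least that fold. Pairs of signals give Smad4 f/f first and Smad4 -/- second.

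At the size rule of 2-fold, 1 member was higher in Smad4 -/- and 1 lower, 2.04% each, while over all measured genes the higher share was 3.42% and the lower 3.58%. At 1.5-fold, 5 members were higher and 11 lower (10.2% and 22.4%), against 11.8% and 13.3% of all measured genes. The other 33 members were not called at 1.5-fold, 10 of them with 1 array below the floor, so that their true ratio may be larger. The median log2 ratio was −0.09 over the measured members and −0.02 over all measured genes. Centring each array on its median brought the median of the members to 0.005, their counts at 2-fold to 1 higher and 0 lower and at 1.5-fold to 6 and 8. The same step moved the 2-fold counts of all measured genes from 379 higher and 397 lower to 479 and 315. Their 1.5-fold counts went from 1308 and 1480 to 1693 and 1206. With this step 50 members and 11205 genes in all counted as measured. The median over all measured genes became 0.06, so that of the members remained the lower one.

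**Figure D1:**
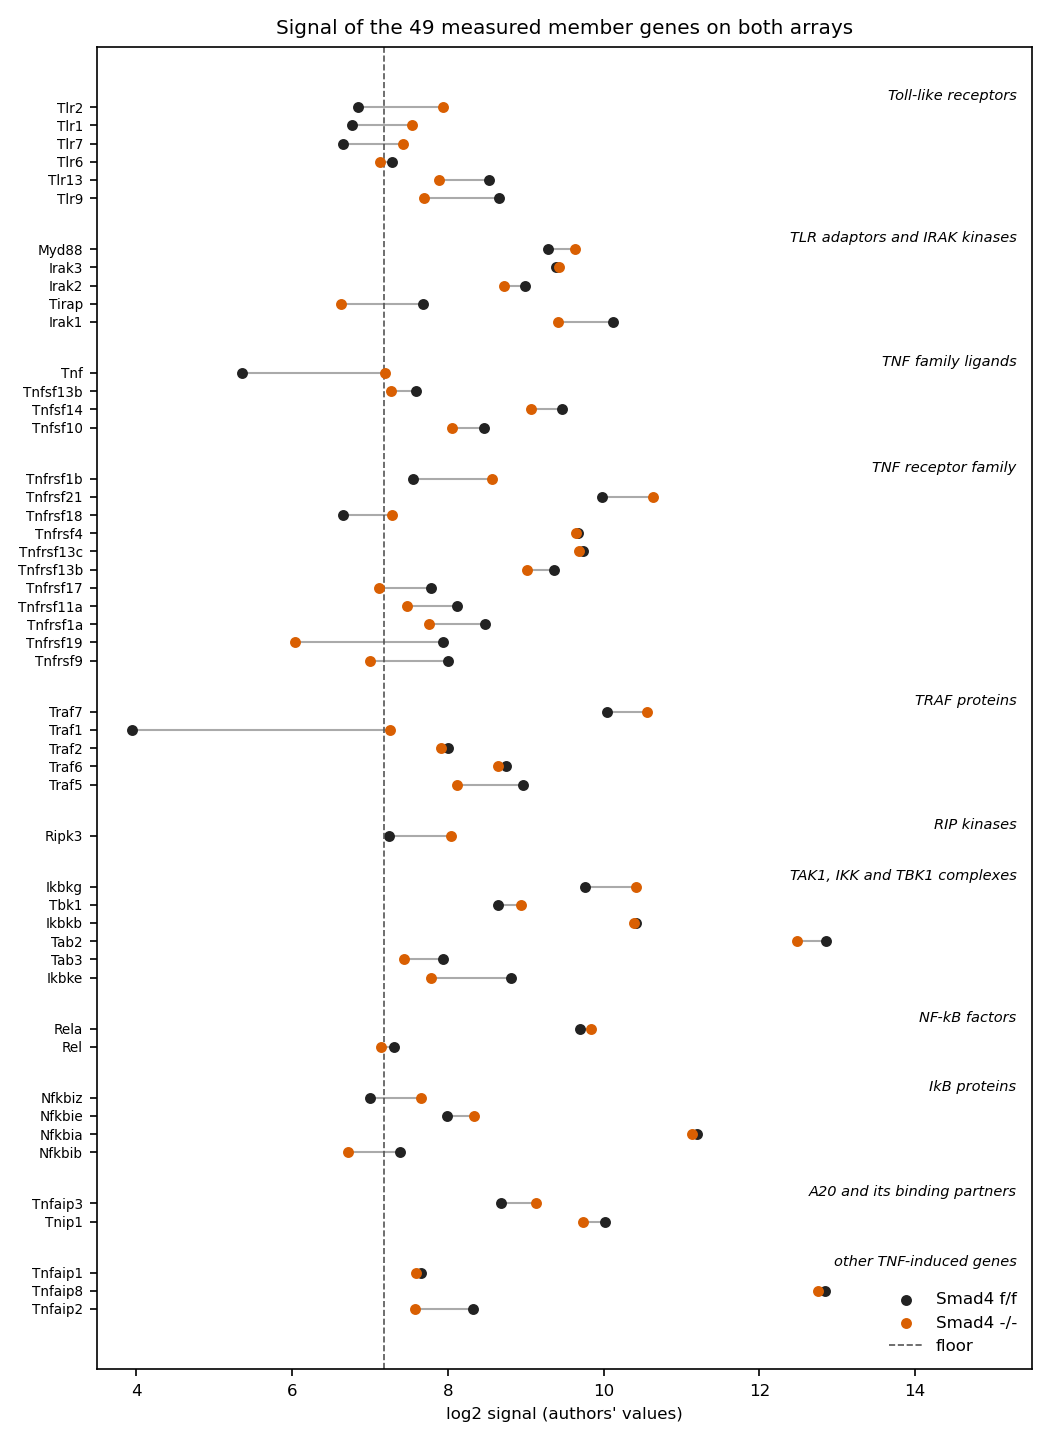
Log2 signal of each measured member gene in Smad4 f/f (black) and Smad4 -/- (orange), grouped by role and joined by a grey line, with the floor dashed. Most pairs lie close together, and among those with both points right of the floor the longest lines belong to Ikbke and Tnfrsf1b, with log2 ratios of −1.02 and 1.004.

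Both arrays carried the platelet transcripts. All 7 platelet markers with a probe set, Clec1b and Pf4 among them, were above the floor on both arrays, with log2 ratios from −0.08 to 0.43. Smad4 itself had log2 ratios of −0.12, −0.09 and −0.13 in its 3 probe sets, whose place relative to the deleted part was not analysed here. The Gapdh control probes, which report on intact RNA, had a 3' over 5' signal of 1.86 in Smad4 f/f against 2.61 in Smad4 -/-, the beta-actin probes one of 1.16 against 1.27, and their part in the ratios was not tested. In such bulk RNA, fewer cells of a type and less RNA per cell cannot be told apart.

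Of the Toll-like receptors, 6 of 11 were measured, and they went both ways. Tlr9, the endosomal receptor of unmethylated CpG DNA, read 403 and 207, 1.95-fold lower and just short of the size rule. Tlr13, the endosomal receptor of bacterial ribosomal RNA, read 370 and 237, 1.56-fold lower. The surface receptor Tlr2, which recognises lipoproteins and forms pairs with Tlr1 or Tlr6, lay below the floor in Smad4 f/f (115) and read 246 in Smad4 -/-, at least 1.69-fold higher. Both endosomal receptors above the floor on both arrays were thus the lower ones, and no surface receptor was above it on both. Tlr1 read 109 and 186, and Tlr7, an endosomal receptor of single-stranded RNA, 101 and 172, so both reached the floor in Smad4 -/- alone. Tlr6 read 155 and 140.1, at the floor. Tlr4, the receptor of lipopolysaccharide, lay below the floor on both arrays in all 4 of its probe sets, as did Tlr3, Tlr5, Tlr8 and Tlr12.

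No adaptor or IRAK kinase was called at 2-fold. Myd88, the adaptor of most Toll-like receptors, read 625 and 790.1, a log2 ratio of 0.34. Irak1, the kinase that it activates, read 1111 and 684, 1.63-fold lower, but its other measured probe sets gave −0.42, −0.04 and, in the brightest, an _x_at set that can bind similar transcripts, 0.38 (1613 and 2096), so no direction can be given. Irak2 had a log2 ratio of −0.27, and Irak3, an IRAK without kinase activity that restrains the pathway, one of 0.04. Tirap, which brings Myd88 to the membrane, had 1 probe set that reached the floor in Smad4 f/f alone (204 against 99) and another that reached it in Smad4 -/- alone (11 against 201), so no direction can be given. Ticam1, the adaptor of Tlr3, was below the floor on both arrays.

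TNF family ligands were lower in Smad4 -/- in 3 of 4 measured genes, beside 5733 of 11089 measured genes in all. A count over 4 genes is not read as a shift of the group. Tnfsf14 (LIGHT), a ligand carried by platelets, read 706 and 535, a log2 ratio of −0.40. Its second probe set read 469 and 99.6, at least 3.23-fold lower. Tnfsf10 (TRAIL), which triggers cell death receptors, had the same pattern: 354 and 267 in its first probe set (−0.41), and 448 and 109 in its second, at least 3.08-fold lower. The probe sets of each ligand thus shared a direction but not a size, and by their mean both ligands passed 2-fold, with log2 ratios of −1.05 and −1.02. Tnfsf13b (BAFF), a survival factor of B cells, had a log2 ratio of −0.33. Tnf read 41 and 147, barely above the floor, and Tnfsf4, Tnfsf8, Tnfsf9 and Tnfsf11 lay below it on both arrays.

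Of 19 TNF receptor family genes 11 were measured, 3 higher in Smad4 -/- and 8 lower, with a median of −0.35. After centring on the medians 12 were measured and the split was 6 and 6, with a median of −0.12. All measured genes split into 5356 higher and 5733 lower, and after centring into 6182 and 5023. The receptors of TNF itself lay on opposite sides. Tnfrsf1b (TNFR2) read 188 and 378, 2.01-fold higher, and its second probe set read 171 and 233, a log2 ratio of 0.44. Tnfrsf1a (TNFR1), the receptor with a death domain, read 355 and 217 in 1 probe set, 1.64-fold lower. Tnfrsf1b is the only member past 2-fold on the higher side, and it falls short with the mean of its probe sets (0.72) and with the floor at the 75th percentile (0.54).

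Of the 18 members with 2 or more measured probe sets, only Tnfrsf21 (DR6), another receptor with a death domain, had all past 1.5-fold in the same direction. It read 1012 and 1587, 1.57-fold higher, and its other probe set read 143 and 320 (319.5), at least 2.20-fold higher. The same count over all genes is not given here. On the lower side, Tnfrsf11a (RANK), the receptor that drives osteoclast formation, read 279 and 177, 1.57-fold lower. Tnfrsf9, a costimulatory receptor of T cells, read 257 and 128 and was at least 1.77-fold lower, and Tnfrsf19 read 246 and 65.5 and was at least 1.69-fold lower. Tnfrsf11a, Tnfrsf9 and Tnfrsf19 rest on 1 measured probe set each.

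Of the 3 receptors that bind BAFF or APRIL on B cells, Tnfrsf13c (BAFF receptor) read 851 and 821, nearly the same. Tnfrsf13b (TACI) read 657 and 516, a log2 ratio of −0.35, and Tnfrsf17 (BCMA), a plasma cell receptor, 221 and 139, at least 1.52-fold lower. B cell markers were present beside them: 6 of 7 with a probe set reached the floor on both arrays, and Pax5 did not. The summed signals of the 7 came to 5378 and 6059, with Ms4a1 at 1867 and 1848. Single markers were mixed: Cd79a read 183.1 and 314.2, a log2 ratio of 0.78, and Blk 520.4 and 290.3, one of −0.84. Ighm read 1278 and 1626 in the probe set taken for the gene, but its 7 measured ones ran from −0.60 to 1.06. Tnfrsf4 (OX40), a costimulatory receptor of T cells, read 817 and 799, and Tnfrsf18 reached the floor only in Smad4 -/- (100.4 and 156). The part of other blood cells in these values was not tested.

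**Figure D2:**
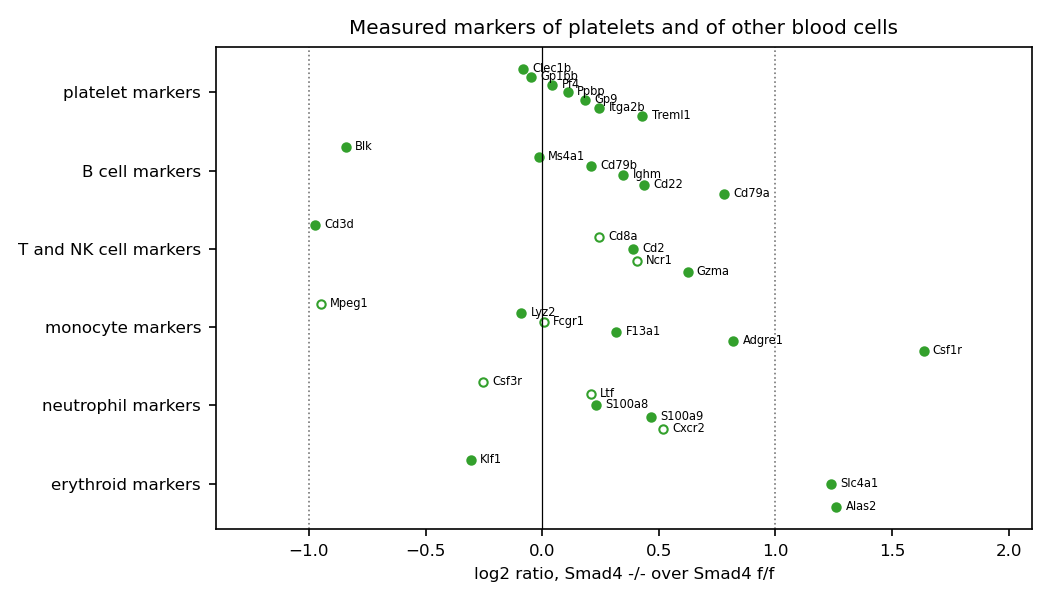
Log2 ratio, Smad4 -/- over Smad4 f/f, of the measured markers of platelets and of other blood cells, 1 point a gene, open where 1 array lay below the floor, with dotted lines at 2-fold. Platelet markers lie near 0, from −0.08 to 0.43, while Csf1r (1.64, with other probe sets down to −0.48), Alas2 (1.26) and Slc4a1 (1.24) lie beyond the right dotted line. The third measured erythroid marker, Klf1, lies below 0 (−0.31).

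Markers of myeloid cells, which carry many of these receptors, were mixed. Csf1r, the receptor of the macrophage growth factor, read 167 and 518 in the probe set taken for the gene, although the log2 ratios of all 3 measured ones ran from −0.48 to 1.64 with a mean of 0.28, and Mpeg1, a macrophage pore protein, read 280.4 and 71. Of 9 monocyte markers with a probe set, 5 reached the floor on each array, and 4 of the 6 measured were higher in Smad4 -/-. The summed signal was 233580 and 248377, nearly all of it from the probe sets of Lyz2 (139723 and 131259) and F13a1 (92933 and 115761). The sum thus follows these 2 probe sets and is not read as a content of monocytes. Whether their transcripts came from monocytes or from platelets was not tested. Adgre1 read 199 and 351, a log2 ratio of 0.82, while Ccr2, Cd14 and Ms4a7 were below the floor on both. Of 9 neutrophil markers 3 and 4 reached it, with sums of 6099 and 7788, mostly S100a8 and S100a9, and Elane, Mpo, Camp and Mmp8 below it on both. For T and NK cells 3 and 5 of 8 did (1492 and 1972), with Cd3e, Cd3g and Cd4 below it on both. Of the 5 measured, 4 were higher in Smad4 -/-, with log2 ratios of 0.62 in Gzma and 0.39 in Cd2. Cd3d read 355.5 and 180.8 and was lower, at −0.98. For erythroid cells 3 of 5 reached the floor on each array (2250 and 4679), with Hba-a1 and Epb42 below it on both. Of the measured ones Alas2 and Slc4a1 were higher, while Klf1 read 268.9 and 217.5 and was lower, at −0.31. The part of all these cells in the values of Tlr2, Tnfrsf1b and the other receptors was not tested.

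Among the TRAF proteins, which link receptors to the kinases, Traf5 had the lowest ratio. It read 498 and 279, 1.79-fold lower, with a second probe set at −0.34. Traf6, the TRAF of the Toll-like receptors, had 2 measured probe sets, at −0.10 and −0.21, and Traf2, that of the TNF receptors, read 255 and 242. Traf7 read 1050.3 and 1511, a log2 ratio of 0.53. Traf1 read 15 and 153 in its strongest probe set and 125 and 16 in the other, so the probe sets were opposite and only 1 value reached the floor. The RIP kinase Ripk3, which executes necroptosis, read 151 and 263, 1.74-fold higher, in 1 probe set whose Smad4 f/f signal stood just above the floor. With the floor at the 75th percentile its log2 ratio was 0.02.

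The measured TAK1, IKK and TBK1 complex genes, kinases and their partners together, lay on both sides of 0, 2 higher in Smad4 -/- and 4 lower, or 3 and 3 after median centring. Ikbkb (IKK-beta), the catalytic subunit that phosphorylates IkB proteins and, in platelets, the fusion protein SNAP-23, read 1371 and 1338, a log2 ratio of −0.04. A weak second probe set read 135 and 343. Ikbkg (NEMO), the regulatory subunit, read 867 and 1364, 1.57-fold higher, and 4 of its 5 measured probe sets were higher, at 0.58, 0.65, 0.97 and 1.14, while the fifth gave −0.07. Tab2 and Tab3, ubiquitin-binding partners of the kinase TAK1, had log2 ratios of −0.38 and −0.50, and both measured probe sets of Tab2 were lower (7404 against 5701 in the stronger, −0.69 in the other).

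Ikbke (IKK-epsilon), an IKK-related kinase that acts on interferon regulatory factors, was the only member past 2-fold on the lower side. It read 448 and 221, 2.03-fold lower, in 1 probe set. The ratio is at the edge of the size rule and fell short of it after median centring (−0.93), after quantile normalisation (−0.98) and with the floor at the 75th percentile (−0.78). Tbk1, the kinase most similar to it, read 398 and 489, a log2 ratio of 0.30, so these related kinases lay on opposite sides. Tank, which is no member but encodes a scaffold that binds both, read 2448 and 1251, a log2 ratio of −0.97, with a second probe set at −0.75.

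**Figure D3:**
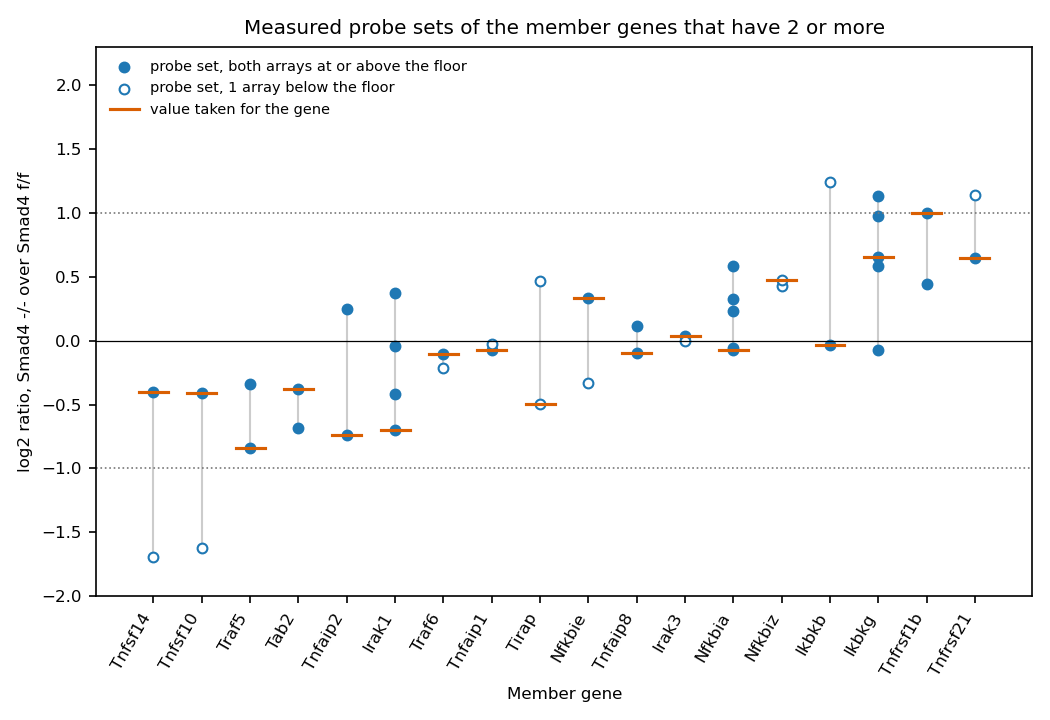
Log2 ratio of every measured probe set of the 18 member genes that have 2 or more, ordered by their mean, with open points where 1 array lay below the floor and an orange bar at the value taken for the gene. Both probe sets of Tnfsf14 and Tnfsf10 lie below 0 and both of Tnfrsf21 and Tnfrsf1b above it, while those of Irak1, Tirap, Tnfaip2 and Nfkbie fall on both sides.

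Of the NF-kB factors and IkB inhibitors, 0 were called at 1.5-fold. Rela, the main transactivating subunit, read 829 and 918, a log2 ratio of 0.15, and Rel 159 and 141, at the floor. Relb lay below the floor, and of Nfkb2, precursor of the alternative pathway's subunit, only an _x_at probe set reached it (191 and 245). Nfkbia (IkB-alpha), the inhibitor that NF-kB itself induces and whose kappa B match is shown above, read 2357 and 2242 in its strongest probe set (−0.07), and its 5 probe sets ran from −0.07 to 0.58. Nfkbie read 255 and 322 with a second probe set in the other direction (−0.33), Nfkbiz 128 and 202, and Nfkbib 167 and 106 (105.5). No IkB gene was called at 1.5-fold, but the values of Nfkbiz and Nfkbib are lower bounds.

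The deubiquitinating enzyme A20 (Tnfaip3), which switches the pathway off, read 412 and 563, a log2 ratio of 0.45, and its partner Tnip1 (ABIN-1) read 1038 and 852, one of −0.28. The feedback inhibitors with matches in the sequences above thus lay on both sides of 0. Of the other Tnfaip genes, Tnfaip8, an inhibitor of apoptosis, read 7374 and 6899 and Tnfaip1 201 and 192. Tnfaip2 had a log2 ratio of −0.74 in 1 probe set and 0.25 in the other. Tnfaip6 was below the floor.

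Related genes outside the symbol rule were counted in the same way, against the shares of 3.42% higher and 3.58% lower over all measured genes. Of 46 genes that complete the pathway, 37 were measured, 0 passed 2-fold in either direction, and the median log2 ratio was −0.07. Birc2, a ubiquitin ligase of the TNF receptor complex, read 95158 and 90410.3, Rnf11, a partner of A20, 78083 and 80054, and Peli2, a ubiquitin ligase of IRAK kinases, had the highest ratio at 0.84. Of 14 TNF family genes known under other symbols 8 were measured, 0 passed 2-fold, and the median was 0.18. Cd40lg, the CD40 ligand that activated platelets expose, read 177 and 181, its receptor Cd40 238 and 201, Ltb 697 and 808 and Ltbr 273 and 249.

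Of 30 genes known as NF-kB targets, 19 were measured, 3 passed 2-fold upwards and 0 downwards, against 3.42% and 3.58% of all measured genes, with a median of 0.04. The chemokine gene Cxcl2 read 70.2 and 319, at least 2.19-fold higher, and Ccl5 1441 and 2918, 2.02-fold higher. Gadd45b was at least 2.44-fold higher in its strongest probe set but had a log2 ratio of −1.15 in the other. In the other direction Nfkbid, a nuclear IkB protein, read 295 and 160.2 (−0.88) and Cxcl1 521 and 315 (−0.73), so the targets did not share a direction. Cd44 and Bcl2l1 had log2 ratios of 0.33 and 0.40.

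**Figure D4:**
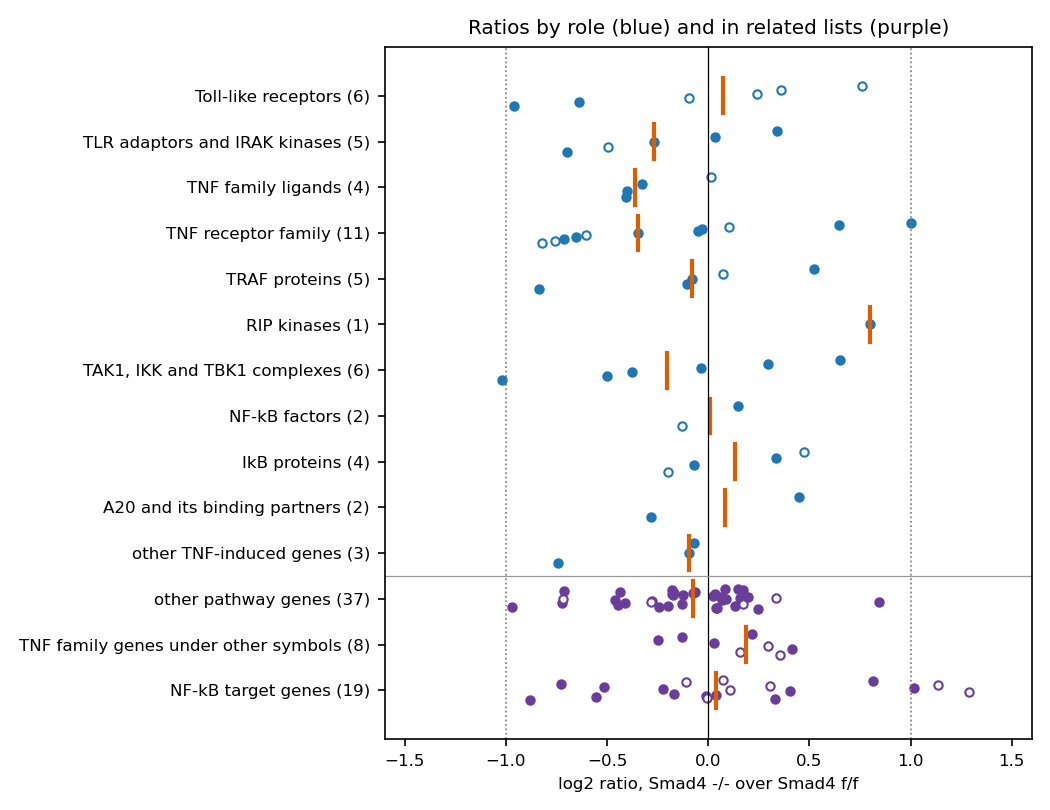
Log2 ratio, Smad4 -/- over Smad4 f/f, of the measured members by role (blue) and of related lists (purple), with the number of measured genes in brackets, open points where 1 array lay below the floor, orange bars at the medians and dotted lines at 2-fold. Medians of roles with more than 1 gene lie between −0.36 and 0.13, and few points reach a dotted line.

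The probe sets of 1 gene give the only yardstick of spread in these data, and their spread need not be technical alone. Values below the floor were raised to it first, which can narrow the spread of weak probe sets. The 18 members with at least 2 measured probe sets had a pooled within-gene SD of 0.47 (log2), and all 4219 such genes one of 0.48. In 9 of the 18 members all probe sets had the same sign, 3 higher and 6 lower. The same count over the 4219 genes is not given here, so no result about the members is read from it. The log2 ratio of 1.004 in Tnfrsf1b and of −1.02 in Ikbke is about the size of 2 such SDs, and this yardstick holds no spread between mice or arrays.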

How the data were processed

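Platelet RNA was labelled by a 3' IVT kit for Affymetrix mouse arrays, per the labels. The authors deposited 1 log2 signal for each probe set of an array. MAS5 is named per the submitters' processing notes, without a version. Both arrays have the same linear mean (500.01) once the outer 2% on either side is left out, so the authors scaled them alike. Detection calls were not used here.

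Probe sets with 1 symbol were kept, and all 137 of the members matched a RefSeq gene by Entrez ID, with 0 changed symbols. Another 3 probe sets with several symbols were left out. Nfkb1, Chuk, Irak4, Ripk1, Ripk2 and Traf3 were not analysed here. Each gene took the probe set with the highest mean signal, _x_at only where there was no other, and values were raised to the floor at the 60th percentile (log2 7.18). No test was run, since each genotype has 1 array, and precision is limited by this number. Members past 2-fold, members whose 2 or more measured probe sets all passed 1.5-fold, and all measured factors, inhibitors and kinases were named. So were the 2 strongest genes per role and list. Other genes were named after their values were seen. Members and lists were chosen with earlier results of these data known. The steps were run on simulated arrays whose planted changes were larger than 2-fold, in genes of strong signal and with little noise. That run checks the code and not calls near 2-fold or near the floor. Python 3.11.15 and pandas 2.3.3 were used.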

Additional observations from a re-analysis of the deposited data

How the results depend on the processing

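No member passed 2-fold under every setting, and with 1 array per genotype no setting tests a difference. At the main setting 1 of 49 members was higher and 1 lower, beside 379 and 397 of 11089 genes in all. Lower members became 0 of 50 after median centring and 0 of 50 after quantile normalisation, beside 315 and 379 lower genes in all. With the floor at the 50th percentile 2 of 53 members were higher and 3 lower, beside 671 and 762 of 13146 genes in all. At the 75th percentile the counts were 0 and 0 of 31, beside 175 and 140 of 7165. With no floor they were 9 and 10 of 73, beside 2727 and 3079 of 18193. The mean of probe sets gave 0 and 3 of 49, beside 286 and 287 of 11089 genes. Leaving out _s_at and _x_at probe sets gave 2 and 1 of 48, beside 364 and 379 of 10751. A threshold of 1.5-fold gave 5 and 11, beside 1308 and 1480 genes in all, and one of 3-fold 0 and 0, beside 57 and 46. Counting only members with 2 or more probe sets in the same direction left 0 lower. Such a count over all genes is not given here. NF-kB targets past 2-fold became 1 of 12 (75th percentile) and 10 of 29 (no floor). TNF family genes under other symbols became 5 of 14 with no floor. The other pathway genes became 1 of 39 (50th percentile) and 6 of 44 (no floor). The counts over all genes at these settings are those given above. The median of the members ran from −0.10 to 0.005. Of 324 values of single members under the alternatives, 22 moved by more than the probe set SD of 0.48. Many of the others could not move. The 31 members with 1 measured probe set keep their value under the mean of probe sets. The 35 members at or above the floor on both arrays keep theirs with a lower floor or none. The count is therefore not read as stability. Neither of the members past 2-fold, Ikbke and Tnfrsf1b, changed sign. The cause of the shifts between settings was not tested beyond the construction of each setting. No paired analysis was possible because each genotype has 1 array.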
